A study of Mus musculus with 27 samples.

Results

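Enteroendocrine cells are the scattered hormone-secreting cells of the gut lining, and 10 genes that mark them are described here: the granule proteins Chga and Chgb, and the peptide hormone precursors Gcg, Cck, Sct, Pyy, Nts, Sst, Gip and Tac1. They were chosen by symbol from the deposited gene counts and make up 10 of the 23420 genes counted. All 10 were found, and all 10 passed the low-count filter of every main fit. That filter looks at all groups of a fit together. Gip in colon tissue, and Gip and Sst in colon organoids, passed it through the counts of other groups, having few or no counts there. The samples come from C57BL/6 mice that received 15% ethanol or water for 8 weeks. RNA was taken from colon or jejunum tissue and from organoids grown from these segments by the method of Sato and Clevers, in which intestinal stem cells form epithelial spheres in culture.

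The 8 groups were control colon organoids and ethanol colon organoids with 2 libraries each, control jejunum organoids and ethanol jejunum organoids with 4 each, control colon tissue and ethanol colon tissue with 4 each, control jejunum tissue with 3 and ethanol jejunum tissue with 4. For organoids, ethanol means that the donor mouse was fed it; no exposure in culture is described. The labels give no genotype other than the strain, and neither age nor sex. Donor numbers recur in all groups and under both treatments, so a number alone does not say which mouse a library came from. Nothing says whether libraries of a group came from separate cultures, so p-values measure only the spread between these libraries, which may in part be technical.

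Enteroendocrine cells arise from the same crypt stem cells as the other epithelial cells, after a pulse of the transcription factor Neurog3. They store peptides in dense-core granules built with chromogranins, cut them from larger precursors by prohormone convertases, and release them towards blood vessels and nerves when nutrients or bacterial metabolites reach the lumen. Which hormones a cell makes depends on its place along the gut: Gip, Cck and Sct are known from the proximal small intestine, Nts from the distal small intestine, and Gcg and Pyy from the ileum and colon. Sst and Tac1 are also made by enteric neurons, so tissue libraries can hold both sources.

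Short promoter stretches are shown first, because the genes fall into groups that share letters upstream of their starts. In the 250 bases before the RefSeq start (GRCm38.p6), TGACGTNA, the core of a cAMP response element with any base at its next-to-last position, was found in Chga, Chgb and Sst, searching both strands. This motif was present in 2.52% of 32851 mouse promoters of the same length, and its palindromic form TGACGTCA, held by Chgb and Sst, in 1.55%. Capitals mark the match in stretches of 30 bases, read 5′ to 3′ along the gene: Chga at chr12:102554886-102554915 on the plus strand, Chgb at chr2:132781559-132781588 on the plus strand and Sst at chr16:23890874-23890903 on the minus strand.
Chga: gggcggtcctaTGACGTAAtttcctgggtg
Chgb: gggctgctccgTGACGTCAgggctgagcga
Sst: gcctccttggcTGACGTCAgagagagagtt

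A GATA motif, AGATAA on either strand, was found in Cck, Gip, Nts and Tac1 and in 9.99% of all promoters of this length. It is shown because 4 of the 10 genes share it; between the tissue segments, Cck and Gip were lower in colon, Tac1 higher and Nts not called. The stretches lie at chr9:121495866-121495895 on the minus strand for Cck, chr10:102490532-102490561 on the minus strand for Nts, chr6:7555017-7555046 on the plus strand for Tac1 and chr11:96024295-96024544 on the plus strand for Gip. Gip is given over all 250 bases, since it holds the motif at 188 and again at 69 bases before its start.
Cck: aggaagctctttAGATAAagagtaagaccc
Nts: gggtgggggatgAGATAAgggacaaaggga
Tac1: tcgtcacgcctgAGATAAataccgcaaagc
Gip: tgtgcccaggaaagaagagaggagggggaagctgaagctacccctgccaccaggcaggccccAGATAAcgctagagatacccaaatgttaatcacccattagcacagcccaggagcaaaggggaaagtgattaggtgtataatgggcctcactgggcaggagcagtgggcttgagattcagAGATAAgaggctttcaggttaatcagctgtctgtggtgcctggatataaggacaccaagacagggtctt

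The E-box CANNTG, which neurogenic helix-loop-helix factors bind, was in the promoters of all 10 genes, but also in 66.2% of all promoters. The TATA box TATAAA was found in Gcg and Sct, against 12.4% of all promoters. These are matches of letters and do not show binding, and RefSeq starts can differ from the starts used in these cells.

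Libraries held 1337068 to 16312562 counts, of which 18.3% to 84.3% fell on Rn45s, a ribosomal RNA precursor. Levels are therefore counts per 1000000 counts outside Rn45s (CPM), and 3 counts in a library correspond to 0.394 to 4.38 CPM, highest in control jejunum tissue, where Rn45s took 76.3% to 84.3%. Fold changes come from edgeR's quasi-likelihood test on all counts with TMM scaling, with p-values adjusted by Benjamini-Hochberg over all genes tested, and a gene is called higher or lower at an adjusted p under 0.05. Errors of log2 fold changes are standard errors. On this scale the log2 fold change of colon over jejunum tissue is 0.41 lower in control and 0.55 lower in ethanol mice than on the CPM scale, and that of organoids over tissue is 0.37 to 0.51 lower except in ethanol colon, where it is 0.03 higher. The colon over jejunum value is 0.29 lower in control organoids, and the ethanol value in colon organoids is 0.22 higher.

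The labels were checked against markers. The epithelial markers summed to 4703 CPM or more in every library, and the enteric neuron marker Vip was 0 in all 12 organoid libraries, which allows up to 3 counts in each. Other neuron markers were present in colon organoids. The 14 together summed to 23.1 and 100.2 CPM in control and 44.0 and 146 CPM in ethanol colon organoids. In jejunum organoids they summed to 3.54 to 6.86 CPM. Of the pancreas markers, Ins2, Cpa1 and Amy2a5 had no count in any of the 27 libraries; the 11 together summed to 1.46 to 248 CPM, with Cela1 reaching 245 CPM in 1 colon tissue library. The colon organoids differed from colon tissue in segment genes. Onecut2, a factor of the proximal gut, was 219 to 1646 CPM in the 4 colon organoid libraries and at most 1.42 CPM in colon tissue. Cdx1, a homeobox factor of the intestine, was 4.91 to 78.1 CPM in them against 281 to 617 CPM in colon tissue. They are called colon organoids here by their label. The 2 control colon organoid libraries also stood far apart, with the 10 genes summing to 164 CPM in replicate 1 and 2541 CPM in replicate 2, so colon organoid results were also computed with each of their libraries left out, and calls that this changed are named.

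**Figure D1:**
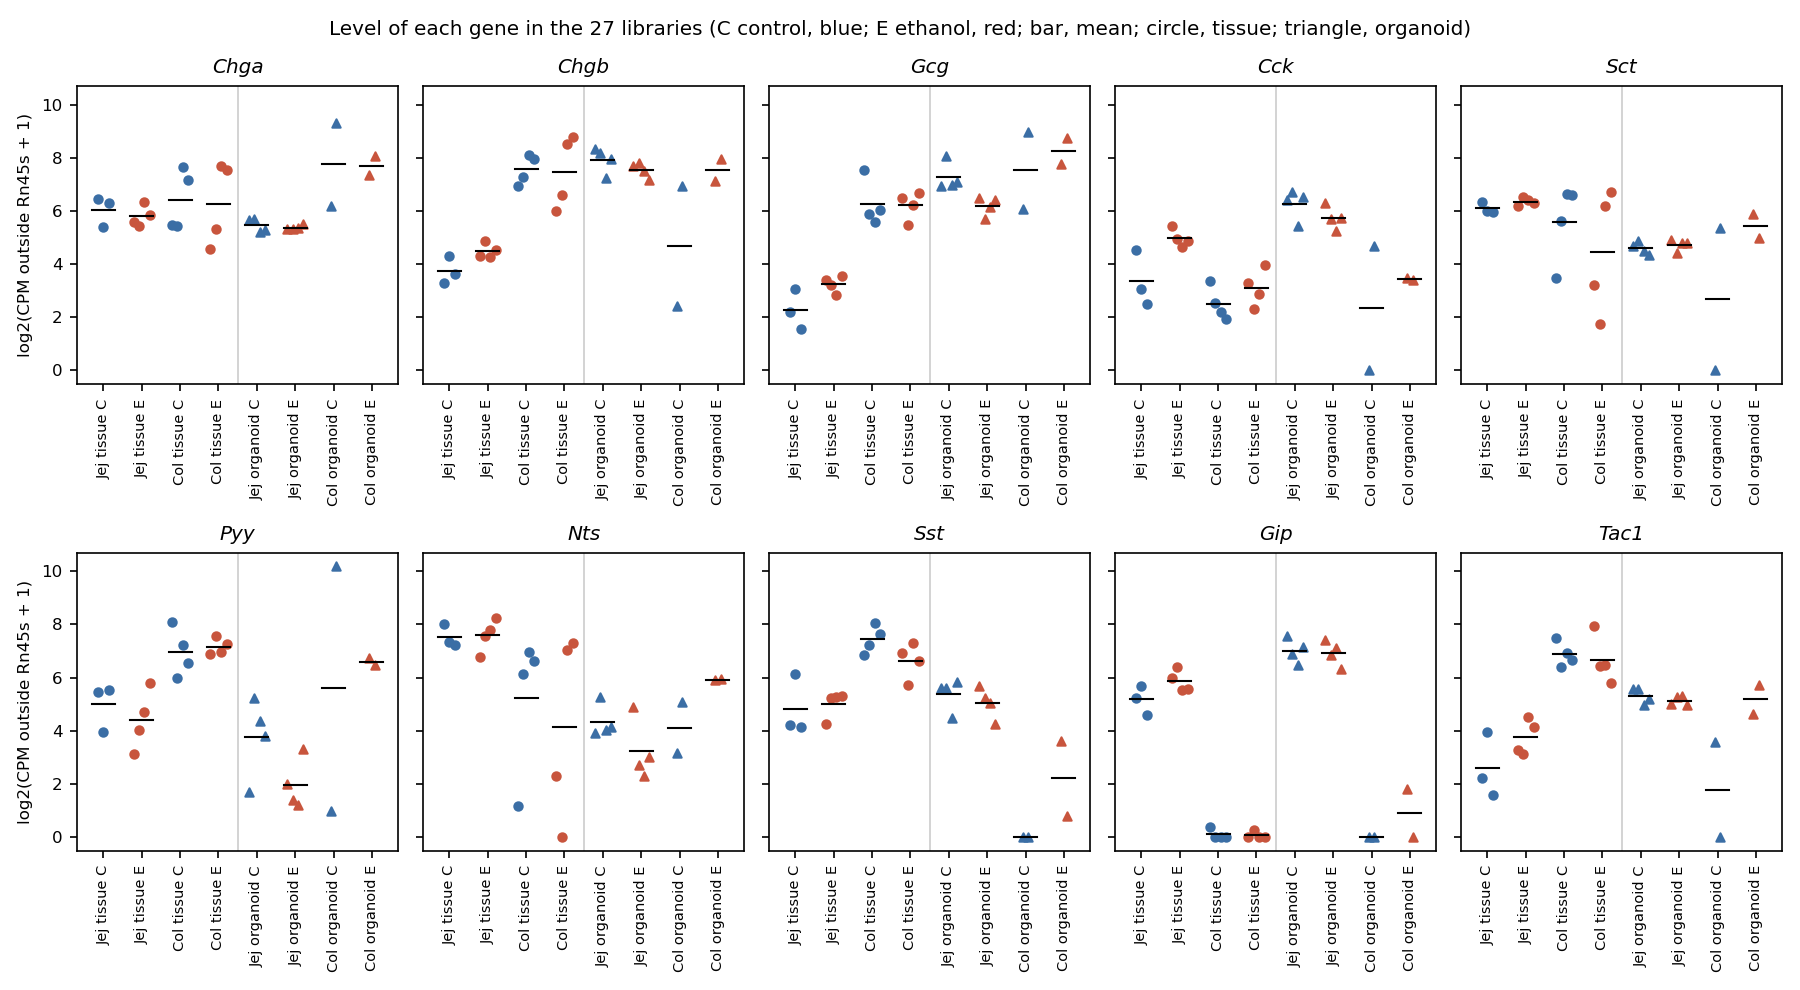
Level of each of the 10 genes in every library, on a log2 axis of CPM outside Rn45s plus 1, grouped by segment and by tissue (circles) or organoids (triangles), with control in blue and ethanol in red. Horizontal bars are group means. Gip is at or near 0 in all colon tissue libraries and between 23.2 and 82.9 CPM in jejunum tissue.

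The segments of the gut differed in hormone content, and control and ethanol mice gave this comparison from separate libraries. Of the 10 genes, 6 passed the test between colon and jejunum tissue in control mice and 7 in ethanol mice. In control mice Chgb, Gcg, Sst and Tac1 were higher in colon and Cck and Gip lower. In ethanol mice the same 6 were called in the same directions, with Pyy higher in colon as the seventh. Such calls were common in general: 42.1% of 13434 genes tested passed in control and 48.1% in ethanol tissue, with 25% and 26% higher and 17.1% and 22.1% lower in colon. In bulk tissue, fewer cells of a type and less RNA per cell cannot be told apart.

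Gip, the incretin hormone of duodenal and jejunal K cells (chromosome 11, 96024545 to 96030831, plus strand, GRCm38), showed the sharpest boundary. In jejunum tissue it was 37.0, 51.1 and 23.2 CPM in control mice and 62.9, 82.9, 45.6 and 46.8 CPM in ethanol mice. In colon tissue it was 0.315, 0, 0 and 0 CPM in control mice and 0, 0.198, 0 and 0 CPM in ethanol mice, which is 2 counts and 1 count over 4 libraries each. All jejunum libraries were therefore far above all colon libraries. From pooled counts, jejunum held 313-fold as much in control mice (95% interval 84.7 to 2610) and 1219-fold as much in ethanol mice (218 to 48205); these exact intervals cover counting error only. The edgeR call had an adjusted p of 1.87e-09 in control and 1.66e-10 in ethanol tissue.

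Gcg, the precursor of glucagon and the glucagon-like peptides made by L cells (chromosome 2, 62474530 to 62483650, minus strand), ran the other way. It was 185, 58.2, 47.5 and 64.3 CPM in control colon and 3.63, 7.30 and 1.99 CPM in control jejunum, the jejunum values resting on 3 to 5 counts each. In ethanol mice it was 89.6, 43.2, 73.5 and 102 CPM in colon and 9.52, 8.23, 6.26 and 10.9 CPM in jejunum. No jejunum library reached any colon library. The log2 fold change of colon over jejunum was 4.06 ± 0.55 in control mice (edgeR adjusted p = 1.77e-05) and 2.60 ± 0.39 in ethanol mice (edgeR adjusted p = 3.52e-05).

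Pyy, the ileal and colonic brake peptide that L cells release with the products of Gcg (chromosome 11, 102106676 to 102107832, minus strand), differed less between segments. It was 271, 62.5, 149 and 93.4 CPM in control colon against 43.5, 14.6 and 45.7 CPM in control jejunum, and 116, 188, 122 and 151 CPM in ethanol colon against 7.62, 15.1, 24.8 and 54.8 CPM in ethanol jejunum. Every colon library was above every jejunum library of its treatment. On the log2 scale colon exceeded jejunum by 1.50 ± 0.62 in control mice, which missed the threshold (edgeR adjusted p = 0.0652), and 1.86 ± 0.55 in ethanol mice, which passed it (edgeR adjusted p = 0.0115). With the donor number as a block the control difference passed, at 1.70 (edgeR adjusted p = 0.00833), and it also passed without control colon replicate 2, at 1.72 (edgeR adjusted p = 0.0428).

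Chgb, a granule-forming secretogranin (chromosome 2, 132781278 to 132795079, plus strand), was among the genes higher in colon. It was 123, 153, 273 and 248 CPM in control colon and 8.71, 19.0 and 11.3 CPM in control jejunum, and 62.6, 95.9, 364 and 438 CPM in ethanol colon and 19.1, 28.2, 18.6 and 22.2 CPM in ethanol jejunum. The ranges did not overlap. Colon exceeded jejunum by 3.61 ± 0.72 on the log2 scale in control mice (edgeR adjusted p = 0.00121) and 2.95 ± 0.57 in ethanol mice (edgeR adjusted p = 0.000718).

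Chga, the other chromogranin and the usual pan-enteroendocrine marker (chromosome 12, 102554969 to 102565028, plus strand), did not separate the segments. It was 43.8, 42.1, 199 and 143 CPM in control colon and 86.4, 40.9 and 77.5 CPM in control jejunum, and 22.7, 38.6, 209 and 186 CPM in ethanol colon and 47.1, 42.2, 81.2 and 57.3 CPM in ethanol jejunum. Colon held both the lowest and the highest values. The log2 fold changes of 0.19 ± 0.79 and 0.49 ± 0.72 did not pass the test.

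Tac1, the precursor of substance P (chromosome 6, 7554879 to 7565834, plus strand), was 177, 84.5, 122 and 101 CPM in control colon against 3.63, 14.6 and 1.99 CPM in control jejunum. In ethanol mice it was 248, 86.6, 86.9 and 53.9 CPM in colon against 8.57, 7.70, 21.8 and 16.6 CPM in jejunum. The groups did not overlap, and the log2 fold change was 4.01 ± 0.66 in control mice (edgeR adjusted p = 0.000203) and 2.47 ± 0.48 in ethanol mice (edgeR adjusted p = 0.000534). Sst, the inhibitory peptide of D cells (chromosome 16, 23889573 to 23890958, minus strand), was 114, 147, 264 and 199.7 CPM in control colon and 17.4, 68.6 and 16.6 CPM in control jejunum, 2.15 ± 0.51 higher in colon on the log2 scale (edgeR adjusted p = 0.00325). In ethanol mice it was 120.3, 51.1, 155 and 97.6 CPM against 18.1, 36.4, 37.1 and 39.0 CPM, and in neither treatment did colon and jejunum overlap. That difference, 1.13 ± 0.42 (edgeR adjusted p = 0.0366), was lost with the donor block (1.08, edgeR adjusted p = 0.055), with limma-voom (1.0, adjusted p = 0.0707), with no low-count filter (edgeR adjusted p = 0.0516), without the colon tissue libraries rich in smooth muscle markers (1.05, edgeR adjusted p = 0.053) and when any of ethanol colon replicates 1, 3 or 4 or ethanol jejunum replicates 1, 2 or 3 was left out (0.86 to 1.22, edgeR adjusted p = 0.05 to 0.116).

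Colon tissue also held more RNA of nerve and muscle, which bears on Tac1, Sst and Chgb. The 14 enteric neuron markers summed to 300.0 to 822 CPM in colon tissue and 58.4 to 220.5 CPM in jejunum tissue, and 7 of 14 in control and 10 of 14 in ethanol mice were called higher in colon, with none lower. Vip was 17.0 to 139.9 CPM in colon tissue and 1.45 to 13.4 CPM in jejunum tissue. The 6 smooth muscle markers summed to 3346 to 19035 CPM in colon and 232 to 1942 CPM in jejunum. The part of these cells in the segment differences was not tested.

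Cck, the gallbladder and satiety hormone of I cells (chromosome 9, 121489824 to 121495694, minus strand), was higher in jejunum. It was 9.29, 4.81, 3.57 and 2.84 CPM in control colon and 22.5, 7.30 and 4.64 CPM in control jejunum, where the ranges overlapped. In ethanol mice it was 8.87, 3.96, 6.29 and 14.8 CPM in colon and 42.4, 29.7, 24.4 and 28.3 CPM in jejunum, where they did not. The log2 fold change of colon over jejunum was −1.64 ± 0.56 in control mice (edgeR adjusted p = 0.0247) and −2.37 ± 0.47 in ethanol mice (edgeR adjusted p = 0.000473). The control call rested on single libraries: it was lost without control colon replicate 3 (edgeR adjusted p = 0.0543) or 4 (edgeR adjusted p = 0.0623), without control jejunum replicate 1, where the value was −0.56 (edgeR adjusted p = 0.529), and with the donor block (−1.28, edgeR adjusted p = 0.0825).

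Sct, secretin (chromosome 7, 141278330 to 141279133, minus strand), and Nts, neurotensin (chromosome 10, 102481756 to 102490486, minus strand), were not called between the segments. Sct was 79.8, 62.8 and 62.2 CPM in control jejunum and 71.9, 91.1, 84.2 and 77.3 CPM in ethanol jejunum, but 10.1, 48.1, 99.3 and 96.4 CPM in control colon and 8.19, 2.38, 71.4 and 103 CPM in ethanol colon. Nts was 261, 162 and 148 CPM in control jejunum and 110.0, 188, 219 and 299 CPM in ethanol jejunum, but 1.26, 69.6, 123 and 98.2 CPM in control colon and 3.87, 0, 130.4 and 155 CPM in ethanol colon. The jejunum libraries were alike and the colon libraries fell apart into low and high ones. The log2 fold changes of colon over jejunum for Sct were −0.51 ± 1.0 and −1.28 ± 0.91, and those for Nts −1.77 ± 1.44 and −1.98 ± 1.36, in control and ethanol mice.

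**Figure D2:**
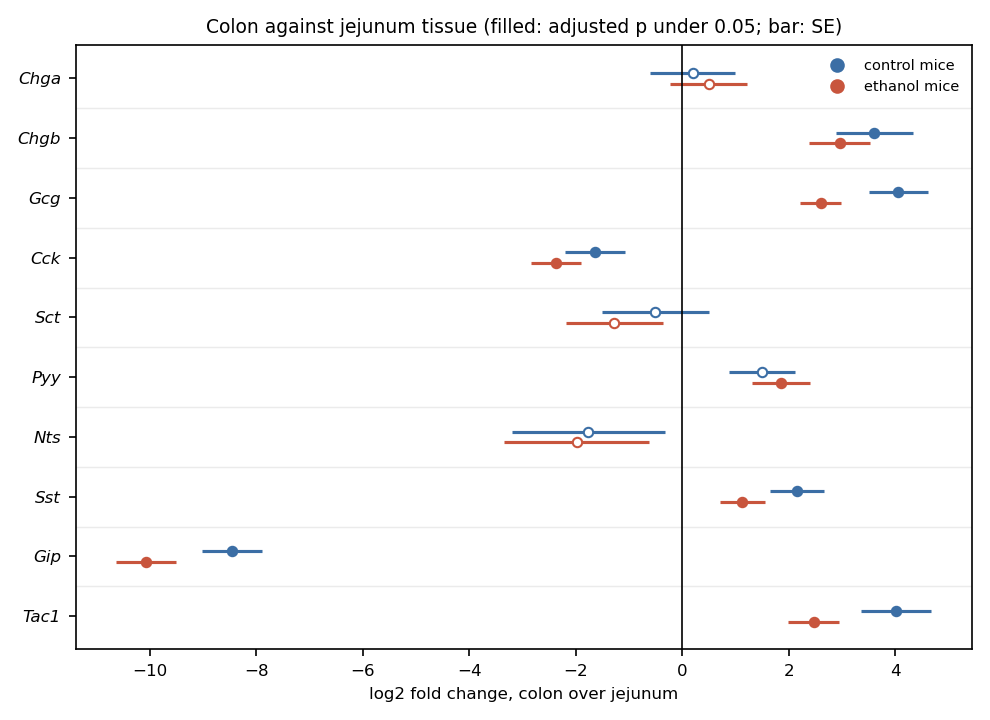
Log2 fold change of colon over jejunum tissue for the 10 genes in control (blue) and ethanol (red) mice. Points are edgeR estimates, bars standard errors, and filled points passed an adjusted p of 0.05; Gip lies far to the left at −8.46 and −10.07, estimates that depend on the prior count because colon libraries had almost no Gip counts.

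The low and high colon libraries could be told by Hoxb13, a homeobox gene of the most distal gut. It was 183 CPM in control colon replicate 1 and 182 and 801 CPM in ethanol colon replicates 1 and 2, and at most 0.274 CPM in the other 5 colon tissue libraries. Insl5, a hormone of distal colonic L cells, was 134 to 317 CPM in these 3 libraries and 2.54 to 5.86 CPM in the other 5. Against this, Nts was 0 to 3.87 CPM in the 3 and 69.6 to 155 CPM in the 5, Sct 2.38 to 10.1 against 48.1 to 103 CPM, and Chgb 62.6 to 123 against 153 to 438 CPM. Tph1, the enzyme of serotonin synthesis in enterochromaffin cells, was 5.23 to 17.2 against 24.3 to 83.4 CPM. Chga ranged from 22.7 to 43.8 CPM in the 3 and from 42.1 to 209 CPM in the 5, with a slight overlap, and Gcg and Pyy overlapped broadly. So 3 of the 10 genes were lower in all 3 libraries than in all 5 others and none was higher in all 3, where 6.71% of 13433 genes were lower and 14.2% higher. The libraries were set apart after their values were seen, so this is a description with no test. They also differed in tissue make-up. Smooth muscle markers summed to 14031 CPM in control replicate 1 and 19035 CPM in ethanol replicate 1. In the other colon tissue libraries, ethanol replicate 2 included, they summed to 3346 to 4176 CPM. Epithelial markers were lowest in the same replicates 1, at 4703 and 5269 CPM. The part of this in the differences was not tested.

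Without these 3 libraries Nts was called lower in colon than in jejunum, at −1.53 ± 0.33 in control (edgeR adjusted p = 0.00105) and −1.05 ± 0.35 in ethanol mice (edgeR adjusted p = 0.0214). Chga was then called higher in colon in ethanol mice, by 1.25 ± 0.42 (edgeR adjusted p = 0.026). In all, 7 of the 10 genes were then called in control and 9 in ethanol mice. The share of all genes called in this refit is not given here, so these counts do not set the 10 genes apart. This exclusion was chosen after the data were seen, the low Nts and Chga levels of these libraries included. The calls it gave are therefore not independent of that choice.

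**Figure D3:**
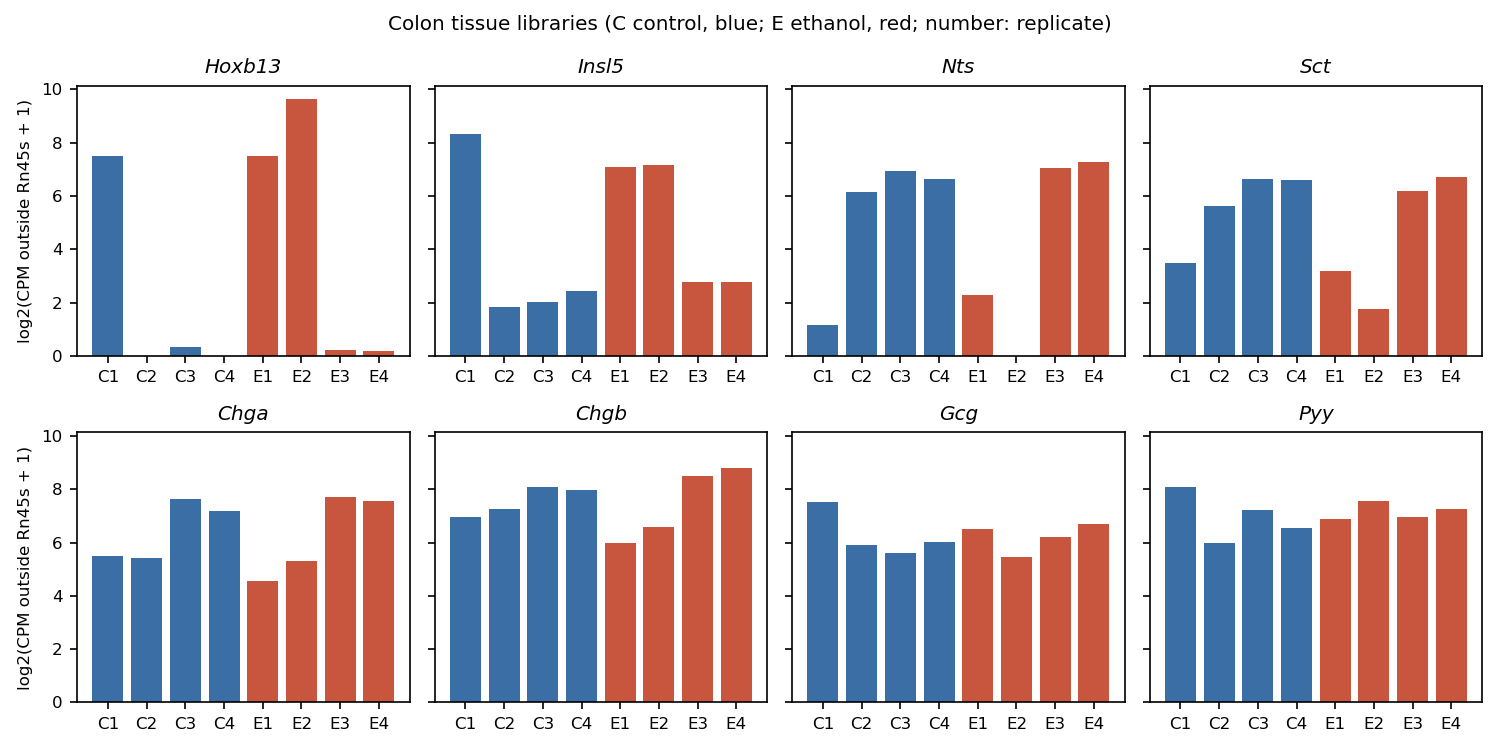
Levels of Hoxb13, Insl5, Nts, Sct, Chga, Chgb, Gcg and Pyy in the 8 colon tissue libraries, as log2 of CPM outside Rn45s plus 1, with bars starting at 0. In control replicate 1 and ethanol replicates 1 and 2, Hoxb13 and Insl5 are high while Nts and Sct are low.

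Other genes of the hormone pathway were read from whole lists. Of 20 granule and prohormone processing genes, 15 were called higher in colon tissue in control and 16 in ethanol mice, and none lower, with a median log2 fold change of 2.25 and 1.58 against 0.36 and 0.17 over all genes. Resp18, a granule protein, was 21.8 to 45.0 CPM in control colon and 0 to 3.31 CPM in control jejunum (3.86 ± 0.75, edgeR adjusted p = 0.000546) and also higher in ethanol colon (3.27 ± 0.54). Pcsk1, the convertase that cuts many of these precursors, was 10.2 to 18.1 CPM in control colon and 0 to 1.99 CPM in control jejunum (3.67 ± 0.85, edgeR adjusted p = 0.0022). Ptprn2, a granule membrane phosphatase, and Syp, synaptophysin, were also higher in colon in both treatments, at 4.09 ± 0.80 and 2.99 ± 0.90 in control and 2.81 ± 0.53 and 4.41 ± 0.81 in ethanol mice. Neurons express many genes of this list.

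Of 11 enteroendocrine transcription factors tested, 4 were higher and 1 lower in control colon, and 5 higher and none lower in ethanol colon. Foxa1 (3.22 ± 0.41 and 2.96 ± 0.32) and Etv1 (3.08 ± 0.71 and 3.41 ± 0.57) were higher in both treatments. Neurog3, which starts the lineage, was lower in control colon (−2.0 ± 0.76, edgeR adjusted p = 0.0414). Of 8 nutrient sensors, 3 were higher and 2 lower in control and 4 higher and 1 lower in ethanol colon. Ffar2, the receptor for short-chain fatty acids, was higher in colon (2.25 ± 0.39 and 1.89 ± 0.32), and Slc5a1, the glucose transporter through which small intestinal cells sense sugar, was lower (−4.46 ± 0.36 and −4.57 ± 0.36). Of 8 receptors for these peptides, 4 were higher and 1 lower in control and 6 higher and 1 lower in ethanol colon. The somatostatin receptor Sstr1 was 19.4 to 74.6 CPM in control colon and 0 to 4.38 CPM in control jejunum (4.78 ± 0.84, edgeR adjusted p = 0.000264), and the substance P receptor Tacr1 was lower in colon (−1.45 ± 0.48 and −1.26 ± 0.43).

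Jejunum organoids, which are nearly free of nerve and muscle RNA, were compared with jejunum tissue to see which hormone transcripts the cultures hold. In control mice 6 of the 10 genes were called, where 51.3% of 14785 genes passed (21.6% higher, 29.7% lower): Chgb, Gcg, Cck, Gip and Tac1 were higher in organoids and Nts lower. In ethanol mice 5 were called, where 53.9% passed (18.8% higher, 35.2% lower): Chgb and Gcg were higher and Sct, Pyy and Nts lower. The neuron markers summed to 3.54 to 6.86 CPM in these 8 organoid libraries and the smooth muscle markers to at most 0.98 CPM, while the epithelial markers summed to 4942 to 6295 CPM against 8304 to 11601 CPM in jejunum tissue.

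Gcg was 122, 268, 127 and 134 CPM in control organoids, against 1.99 to 7.30 CPM in control tissue, and 88.8, 51.6, 69.6 and 83.5 CPM in ethanol organoids, against 6.26 to 10.9 CPM in ethanol tissue. The log2 fold change of organoids over tissue was 5.01 ± 0.68 in control (edgeR adjusted p = 1.07e-06) and 2.55 ± 0.47 in ethanol mice (edgeR adjusted p = 5.86e-05). Jejunum organoids thus held Gcg in the range of colon tissue, 43.2 to 185 CPM, save for the highest organoid library. Chgb was 323, 292, 149 and 248 CPM in control and 208, 224, 182 and 143 CPM in ethanol organoids, above all tissue libraries of 8.71 to 28.2 CPM, with log2 fold changes of 3.97 ± 0.80 (edgeR adjusted p = 0.000272) and 2.59 ± 0.62 (edgeR adjusted p = 0.00125).

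Gip was 187, 116, 87.4 and 140.3 CPM in control and 168, 113, 138 and 79.7 CPM in ethanol organoids. Its log2 fold change over tissue was 1.50 ± 0.38 in control mice (edgeR adjusted p = 0.00203) and 0.58 ± 0.33 in ethanol mice, which did not pass (edgeR adjusted p = 0.136). The ethanol value passed without ethanol organoid replicate 4 (0.87, edgeR adjusted p = 0.0389), with Rn45s left out (0.80, edgeR adjusted p = 0.0415) and with only the compared groups in the fit (0.72, edgeR adjusted p = 0.0255). Cck was 84.5, 104, 42.4 and 91.0 CPM in control and 79.0, 50.9, 37.6 and 52.1 CPM in ethanol organoids, which was 2.36 ± 0.66 above tissue on the log2 scale (edgeR adjusted p = 0.00411) in control and 0.33 ± 0.52 in ethanol mice, the latter not called. Tac1 was 46.0, 47.0, 30.3 and 35.4 CPM in control and 30.9, 37.2, 38.6 and 30.3 CPM in ethanol organoids, all above the jejunum tissue libraries. Its log2 fold change was 2.45 ± 0.64 in control (edgeR adjusted p = 0.00237) and 0.75 ± 0.45 in ethanol mice (edgeR adjusted p = 0.168), called with only the compared groups in the fit (0.91, edgeR adjusted p = 0.016). Whether the organoid difference itself depended on ethanol was not tested for these genes.

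Nts was the gene that was lower in organoids in both treatments. It was 14.0, 37.2, 15.1 and 16.5 CPM in control and 29.1, 5.48, 3.96 and 6.98 CPM in ethanol organoids, where jejunum tissue held 110.0 to 299 CPM. The log2 fold change was −3.62 ± 1.25 in control mice (edgeR adjusted p = 0.0207), lost without control organoid replicate 1, 3 or 4 or control tissue replicate 1 (edgeR adjusted p = 0.0541 to 0.0624), and −4.63 ± 1.28 in ethanol mice (edgeR adjusted p = 0.0045). The shared spread of the fit includes the colon tissue libraries that fell apart for this gene.

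Sct was 24.9, 28.7, 21.6 and 19.1 CPM in control and 29.3, 20.6, 27 and 26.8 CPM in ethanol organoids, below all jejunum tissue libraries of 62.2 to 91.1 CPM. Organoids over tissue gave a log2 value of −1.95 ± 0.90 in control mice (edgeR adjusted p = 0.0759) and −2.16 ± 0.84 in ethanol mice (edgeR adjusted p = 0.0344). The ethanol call was lost without any of the 4 organoid replicates or tissue replicates 2 or 3 (edgeR adjusted p = 0.0511 to 0.0967), with no low-count filter (edgeR adjusted p = 0.0594) and with Rn45s left out (edgeR adjusted p = 0.0535). With only the groups compared in the fit, the control difference was called at −1.78 (edgeR adjusted p = 2.17e-05).

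Pyy was 2.21, 36.2, 19.5 and 12.8 CPM in control and 2.95, 1.60, 1.32 and 9.02 CPM in ethanol organoids. It was called lower than in tissue in ethanol mice, at −3.39 ± 1.09 (edgeR adjusted p = 0.0124), and not in control mice, at −1.49 ± 1.06. The ethanol call was lost without ethanol tissue replicate 4 (−2.67, edgeR adjusted p = 0.0535).

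Chga and Sst were not called in either treatment, although with only the compared groups in the fit Chga was called lower in organoids in control (−0.91, edgeR adjusted p = 0.0108) and ethanol mice (−0.86, edgeR adjusted p = 0.003). Chga was 49.7, 51.4, 36.5 and 38.5 CPM in control and 38.9, 38.8, 39.9 and 45.1 CPM in ethanol organoids, with log2 fold changes of −1.08 ± 0.69 and −1.02 that were not called. Sst was 47.5, 47.3, 21.6 and 55.4 CPM and 49.9, 36.3, 31.6 and 18.3 CPM, with log2 fold changes of 0.09 ± 0.54 and −0.47. A value that misses the threshold does not show that the levels are equal.

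**Figure D4:**
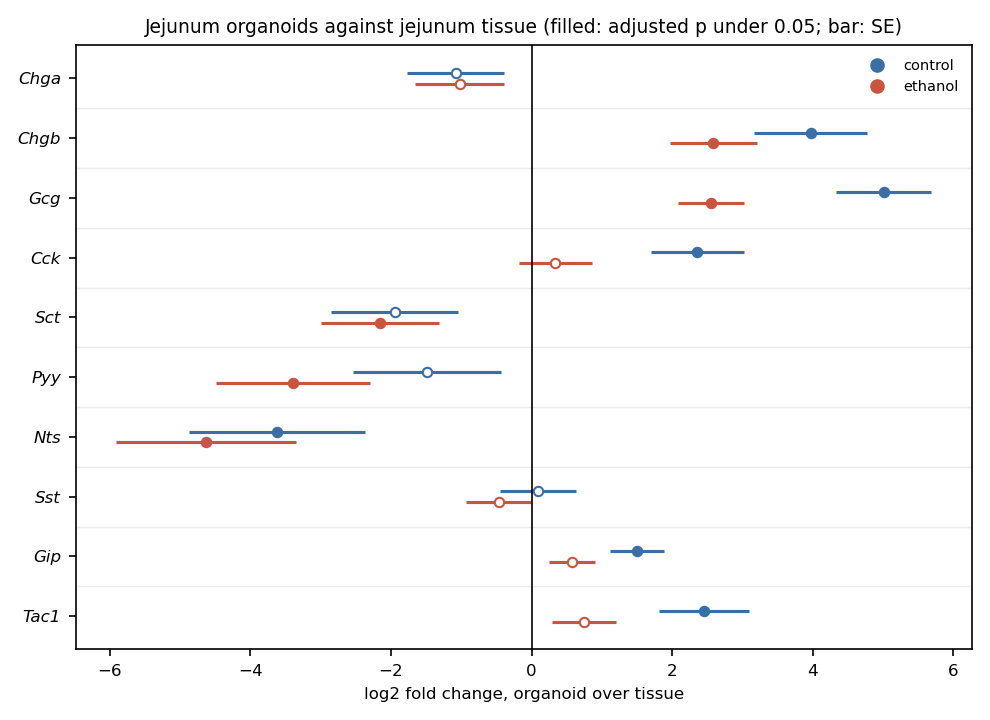
Log2 fold change of jejunum organoids over jejunum tissue for the 10 genes in control (blue) and ethanol (red) mice. Points are edgeR estimates, bars standard errors, and filled points passed an adjusted p of 0.05; Gcg and Chgb lie to the right and Nts to the left in both treatments.

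The other pathway genes moved both ways in jejunum organoids. Of 14 transcription factors, 5 were higher than in tissue in control and 4 in ethanol mice, and none lower. Insm1 (4.01 ± 1.01 and 3.95 ± 0.70) and Fev (6.44 ± 1.84 and 2.81 ± 0.79), which act in differentiating enteroendocrine cells, were higher in both. The control value of Fev depends on the prior count, since control tissue had 0 Fev counts against 53 in control organoids. From pooled counts it was at least 3.42-fold higher, a bound that covers counting error only. In ethanol mice Fev had 39 counts in organoids and 4 in tissue. Of 20 granule and processing genes, 2 were higher and 7 lower in control and none higher and 10 lower in ethanol organoids. The processing enzymes Cpe (−3.47 ± 0.54 and −3.88 ± 0.54) and Pcsk2 (−5.88 ± 1.25 and −5.94 ± 1.08) were lower, both of which neurons also express, whereas Pcsk1 was higher in control organoids (2.78 ± 0.86). The hormone gene Ghrl, ghrelin, was 15.4 to 30.7 CPM in jejunum organoids and 0.726 to 5.84 CPM in jejunum tissue (3.64 ± 0.85 in control, edgeR adjusted p = 0.000828, and 2.12 ± 0.59 in ethanol mice, edgeR adjusted p = 0.00339). Of 9 receptors, 4 were lower in control and 5 in ethanol organoids and none higher, led by Tacr1 (−6.37 ± 0.78 and −8.52 ± 0.96) and Glp2r, the receptor for a Gcg product (−5.74 ± 0.86 and −7.21 ± 0.89).

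Colon organoids rested on 2 libraries per group. Against control colon tissue, 4 genes were called in control organoids, where 46.2% of 14785 genes passed (14.5% higher, 31.7% lower): Gcg higher, Chgb, Sst and Tac1 lower. Against ethanol colon tissue, 4 were called in ethanol organoids, where 33.4% passed (14.6% higher, 18.7% lower): Gcg and Gip higher, Sst and Tac1 lower. Sst and Tac1 were thus lower in colon organoids in both treatments, and the neuron markers summed to 23.1 and 100.2 CPM in control and 44.0 and 146 CPM in ethanol colon organoids against 300.0 CPM or more in colon tissue; their part in this was not tested. Without the 3 Hoxb13-rich tissue libraries, Sct (−2.61 ± 0.70, edgeR adjusted p = 0.00433) and Nts (−2.71 ± 0.72, edgeR adjusted p = 0.00415) were also called lower in control colon organoids. Those tissue libraries were set apart after their low Sct and Nts values were seen. The Sct and Nts calls are therefore not independent of that choice, and the share of all genes called there is not given here.

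Sst was 0 and 0 CPM in control colon organoids, no count in either library, and 11.3 and 0.743 CPM in ethanol colon organoids, which is 32 counts and 1 count. Against the 3189 counts of control colon tissue, control organoids were at least 164-fold lower, with the floor of 3 counts taken over the group. This bound covers counting error only. In ethanol mice the log2 fold change was −3.89 ± 0.73 (edgeR adjusted p = 0.000303). Tac1 was 10.8 and 0 CPM in control and 23.9 and 52.0 CPM in ethanol colon organoids, with log2 fold changes over tissue of −4.43 ± 0.73 (edgeR adjusted p = 3.08e-05) and −1.62 ± 0.59 (edgeR adjusted p = 0.0345). The ethanol value for Tac1 was lost with the donor block (−1.53, edgeR adjusted p = 0.1), without ethanol colon organoid replicate 1 or 2 or ethanol colon tissue replicate 1, and without the 3 Hoxb13-rich libraries (−0.96, edgeR adjusted p = 0.23).

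Gcg was 67.3 and 507 CPM in control and 217 and 427 CPM in ethanol colon organoids. The log2 fold change over tissue was 1.27 ± 0.50 in control (edgeR adjusted p = 0.0402) and 2.05 ± 0.49 in ethanol mice (edgeR adjusted p = 0.00258). The control value turned to −0.60 without control organoid replicate 2 and was lost without control tissue replicate 2, 3 or 4 with no low-count filter (edgeR adjusted p = 0.0616) or with the donor block (0.60, edgeR adjusted p = 0.425). The ethanol value missed the threshold without ethanol organoid replicate 2 (1.56, edgeR adjusted p = 0.0702). Chgb was 4.42 and 121 CPM in control and 139 and 246 CPM in ethanol colon organoids, and its control difference of −2.24 ± 0.82 (edgeR adjusted p = 0.0297) was −1.06 and no longer called without control organoid replicate 1, and was lost without control tissue replicate 3 or 4, with RLE scaling (−1.95, edgeR adjusted p = 0.0573) and with no low-count filter (edgeR adjusted p = 0.0522). Gip had 7 counts in 1 ethanol colon organoid library and 1 count in ethanol colon tissue, a ratio of 36.5 from pooled counts. Its 95% interval, 4.69 to 1644, covers counting error only. Without that organoid library the log2 fold change was −1.21.

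Between the organoids of the 2 segments, 7 of the 10 genes were called in control mice, where 49.8% of 12922 genes passed (23.8% higher, 26.1% lower in colon), and 7 in ethanol mice, where 45.9% passed (25.6% higher, 20.3% lower). Gip was lower in colon organoids in both: it had no count in control colon organoids against 2519 in control jejunum organoids, at least 130-fold lower, and 2.46 and 0 CPM in ethanol colon organoids, 76.8-fold lower (95% interval 37.2 to 191). Sst had no count against 800, at least 41.2-fold lower, in control mice. In ethanol mice it was 4.56-fold lower from pooled counts (3.21 to 6.68), with 11.3 CPM in colon organoid replicate 1 and 0.743 CPM in replicate 2. The ratios, bounds and intervals from pooled counts given here cover counting error only, not the spread between libraries. Cck was 0 and 24.4 CPM in control and 10.2 and 9.66 CPM in ethanol colon organoids, and lower than in jejunum organoids, with log2 fold changes of −3.40 ± 0.92 (edgeR adjusted p = 0.00935) and −2.52 ± 0.83 (edgeR adjusted p = 0.0273). Ghrl had no count in control colon organoids, at least 23.3-fold lower than in jejunum organoids.

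Chga and Pyy were higher in colon than in jejunum organoids in both treatments. Chga was 72.2 and 639 CPM in control and 162 and 271 CPM in ethanol colon organoids, with log2 fold changes of 2.63 ± 0.52 (edgeR adjusted p = 0.0014) and 2.35 ± 0.51 (edgeR adjusted p = 0.00333). Pyy was 0.982 and 1176 CPM in control and 105 and 87.0 CPM in ethanol colon organoids, with log2 fold changes of 4.69 ± 1.29 (edgeR adjusted p = 0.0104) and 4.66 ± 1.40 (edgeR adjusted p = 0.0179). Control colon organoid replicate 2 decided both control values: without it Chga was 0.53 (edgeR adjusted p = 0.115) and Pyy −4.26 (edgeR adjusted p = 0.0802). In control mice Chgb (−2.50 ± 0.80) and Tac1 (−2.80 ± 0.67) were also called lower in colon organoids, and in ethanol mice Gcg (2.06 ± 0.55) and Nts (2.27 ± 0.73) higher. Without control colon organoid replicate 1 or 2, the control values stayed called and ranged widely, at −1.46 and −6.02 for Chgb, −2.11 and −11.24 for Cck and −10.17 and −2.06 for Tac1. Insl5 was 70.7 and 937 CPM in control and 105 and 222 CPM in ethanol colon organoids and at most 0.368 CPM in jejunum organoids.

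The calls between the organoid segments depended on how donors were treated. With the donor number as a block, 2 genes were called in control mice, Sst and Gip, both lower in colon, and 2 in ethanol mice, Gip lower and Pyy higher. The share of all genes called with the block is not given here. Leaving out ethanol colon organoid replicate 2 left 2 calls in ethanol mice, Chga and Gip, and leaving out replicate 1 left 4. Cck (−2.66 and −2.49, edgeR adjusted p = 0.118 and 0.12) and Nts (2.20 and 2.25, edgeR adjusted p = 0.0932 and 0.0867) were lost on leaving out replicate 1 and on leaving out replicate 2, as was Pyy (edgeR adjusted p = 0.0726 and 0.0532), and Gcg (1.50, edgeR adjusted p = 0.12) and Sst (−1.67, edgeR adjusted p = 0.104) without replicate 2. Of the granule and processing genes, 7 of 18 were higher in control and 14 of 18 in ethanol colon organoids, and none lower, with Pam, an amidating enzyme, at 4.16 ± 0.45 and 4.25 ± 0.45 and Pcsk1n, an inhibitor of Pcsk1, at 6.07 ± 0.78 and 6.14 ± 0.78. With 1 colon organoid library left out, a group rested on 1 library, and the share of all genes called changed as well. Some of the list were then called lower in control mice, and none in ethanol mice. Pam and Pcsk1n stayed called, at 2.71 and 4.62 in control mice without control replicate 2.

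The treatment comparison asks what chronic ethanol does to these transcripts. In colon organoids, 2 of the 10 genes were called, Sst and Tac1, both higher in ethanol, where 17.3% of 12922 genes passed (12.1% higher, 5.19% lower). In jejunum organoids, colon tissue and jejunum tissue none was called, where 0%, 0.00744% and 0% of genes passed. No other list held a call in those 3 comparisons. The ethanol result of the 10 genes was therefore limited to a comparison of 2 libraries against 2.

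In colon organoids Tac1 was 10.8 and 0 CPM in control and 23.9 and 52.0 CPM in ethanol libraries, 2.64 ± 0.72 higher on the log2 scale (edgeR adjusted p = 0.0262). It was lost without ethanol replicate 2 (2.04, edgeR adjusted p = 0.129), and it was 9.98 without control replicate 1, since the remaining control library had no Tac1 count, and 1.87 without control replicate 2. Sst went from no count in either control library to 33 counts in ethanol, a call with an edgeR adjusted p of 0.0397. With a floor of 3 pooled control counts the ratio was 7.50, a bound that covers counting error only. Of the 33 counts, 32 lay in ethanol replicate 1. Ethanol replicate 2 held 1 count, 0.743 CPM, below its own level of 2.23 CPM for 3 counts. The Sst call was lost when control replicate 1 (edgeR adjusted p = 0.15), control replicate 2 (edgeR adjusted p = 0.0749) or ethanol replicate 1 (edgeR adjusted p = 0.417) was left out. Neither gene was called with the donor block or with limma-voom. With only the 4 colon organoid libraries in the fit, Tac1 was not called (edgeR adjusted p = 0.811) and Sst had too few counts to be tested.

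For Chga, Chgb, Gcg, Cck, Sct and Pyy the ethanol estimate in colon organoids turned on which control library was used. Nts was positive and not called with either control library left out (1.17 and 3.04), and Gip had counts in ethanol replicate 1 alone. Control replicate 1 held 164 CPM of the 10 genes in sum, control replicate 2 held 2541 CPM, and ethanol libraries 787 and 1183 CPM, in between. Sct was 0 and 40.3 CPM in control and 58.7 and 30.5 CPM in ethanol libraries, Nts 7.86 and 33.0 against 58.7 and 60.2 CPM, and Chgb 4.42 and 121 against 139 and 246 CPM. Against control replicate 1 alone the ethanol estimates were 10.37 for Sct, 8.17 for Cck, 6.69 for Pyy and 5.54 for Chgb. They were 2.36 for Gcg, 1.87 for Tac1 and 1.69 for Chga. Against control replicate 2 alone they were −1.25 for Chga and −3.28 for Pyy. In these fits the lone control library is assumed to vary like the other groups. With both control libraries, Chga was −0.41 ± 0.61, Pyy −2.27 ± 1.53, Chgb 2.02 ± 0.85, Nts 1.90 ± 0.94 and Sct 1.65 ± 1.01, and none passed.

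Of 14 enteroendocrine transcription factors, 5 were called higher in ethanol colon organoids and none lower, where 12.1% of all genes were called higher. The 14 estimates were 7 positive and 7 negative, with a median of 0.31, and the summed level of the list was 287 and 412 CPM in control and 247 and 297 CPM in ethanol colon organoids. With 1 of these libraries left out, a group rests on 1 library, and the share of all genes called changed as well. Some of the list were called lower without replicate 1 of either group, and the call of Neurog3 was lost without control replicate 1. Neurog3 had no count in control colon organoids and was 3.52 and 5.95 CPM in ethanol ones, at least 4.09-fold higher from pooled counts. Fev, a factor of the enterochromaffin branch, was 9.85 and 23.8 CPM against no count, at least 13.6-fold higher, and Lmx1a, another factor of that branch, at least 11.1-fold higher. Pax6, which activates Gcg, was at least 9.31-fold higher. Such bounds pool the libraries of a group and cover counting error only. The control libraries detected 11780 and 9951 genes in all, the fewest of the 27 libraries, against 15383 and 13542 in ethanol ones. They held 2036195 and 818240 counts outside Rn45s, against 2843857 and 1345224. The part of this lower detection in the zeros was not tested. Of 18 granule and processing genes 5 were higher and 1 lower: Scgn, a calcium sensor of secretion, by 2.85 ± 0.66 and Scg5, the Pcsk2 chaperone, by 3.33 ± 0.92, while Scg2 was 0 and 70.9 CPM in control and 0.352 and 0 CPM in ethanol libraries. The calls of this list moved with the library left out, as did the share of all genes called. Without ethanol replicate 2 Scgn was 2.57 and Scg5 2.49, and none of the list was called. The Scg2 call was lost without ethanol replicate 1 (edgeR adjusted p = 0.133) or 2 (edgeR adjusted p = 0.146), and without control replicate 2 the value was 2.96 (edgeR adjusted p = 0.476). The somatostatin receptor Sstr1 was 0 and 0 against 7.74 and 7.43 CPM, at least 7.27-fold higher. The immune cell markers summed to 85.9 and 68.4 CPM in control and 457 and 132 CPM in ethanol colon organoids, led by Csf1r at 42.7 and 18.3 CPM against 352 and 72.9 CPM, and the 6 glia markers to 6.88 and 17.1 against 13.4 and 42.4 CPM. The part of these cells in the differences was not tested.

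The difference between the ethanol effects in colon and jejunum organoids was tested directly. It was called for Tac1, at 2.87 ± 0.83 (edgeR adjusted p = 0.0497), where 9.43% of 12922 genes passed (7.2% higher, 2.23% lower). The Tac1 call was lost when ethanol colon replicate 2 or any of the 8 jejunum libraries was left out (edgeR adjusted p = 0.067 to 0.165), and with the donor block. For Sst the difference was 7.87 ± 2.31 (edgeR adjusted p = 0.0555).

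In jejunum organoids edgeR called no gene at all, 144 genes (1.11%) had an unadjusted p under 0.05, and DESeq2 called 1 gene, none of the 10. Gcg was the 1 of the 10 with an unadjusted p under 0.05: its log2 fold change was −1.15 ± 0.47 (95% interval −2.16 to −0.13, edgeR adjusted p = 1), with 122 to 268 CPM in control and 51.6 to 88.8 CPM in ethanol organoids, which did not overlap. Gip, at −0.10 ± 0.34 (−0.86 to 0.65), had the narrowest interval. Pyy had the widest, −2.24 ± 1.27 (−5.00 to 0.52).

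In colon tissue 1 gene was called in all and none of the 10 had an unadjusted p under 0.05, against 324 genes (2.41%) of all tested; DESeq2 called 2 genes, none of the 10. Sst was −0.82 ± 0.41 (95% interval −1.69 to 0.06). Pyy was 0.01 ± 0.52 and Gcg −0.17 ± 0.35. Nts, at −0.01 ± 1.32, had an interval of −2.90 to 2.89, so this comparison could not show even a large change of Nts; 1 control and 2 ethanol libraries were among those rich in Hoxb13.

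In jejunum tissue no gene was called by edgeR and 31 by DESeq2, none of the 10. An unadjusted p under 0.05 was found for 4 of the 10, Cck, Gcg, Gip and Tac1, all higher in ethanol, and for 11.4% of all genes (1534). Cck was 4.64 to 22.5 CPM in control and 24.4 to 42.4 CPM in ethanol tissue, ranges that did not overlap, and differed by 1.46 ± 0.54 on the log2 scale (95% interval 0.32 to 2.60, edgeR adjusted p = 0.303). Gcg was 1.29 ± 0.58 (edgeR adjusted p = 0.402), Gip 0.80 ± 0.35 (edgeR adjusted p = 0.377) and Tac1 1.46 ± 0.67 (edgeR adjusted p = 0.423). Rn45s took 76.3% to 84.3% of the counts in control and 53.4% to 80.8% in ethanol jejunum tissue, and the immune cell markers summed to 137 to 882 CPM in control and 821 to 1595 CPM in ethanol jejunum tissue; their part in these estimates was not tested. The difference of the ethanol effects between colon and jejunum tissue was called for no gene by edgeR and for 2 by DESeq2, none of the 10; Gcg alone of the 10 had an unadjusted p under 0.05 (−1.46 ± 0.68, edgeR adjusted p = 0.734), as had 6.65% of all genes (894).

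**Figure D5:**
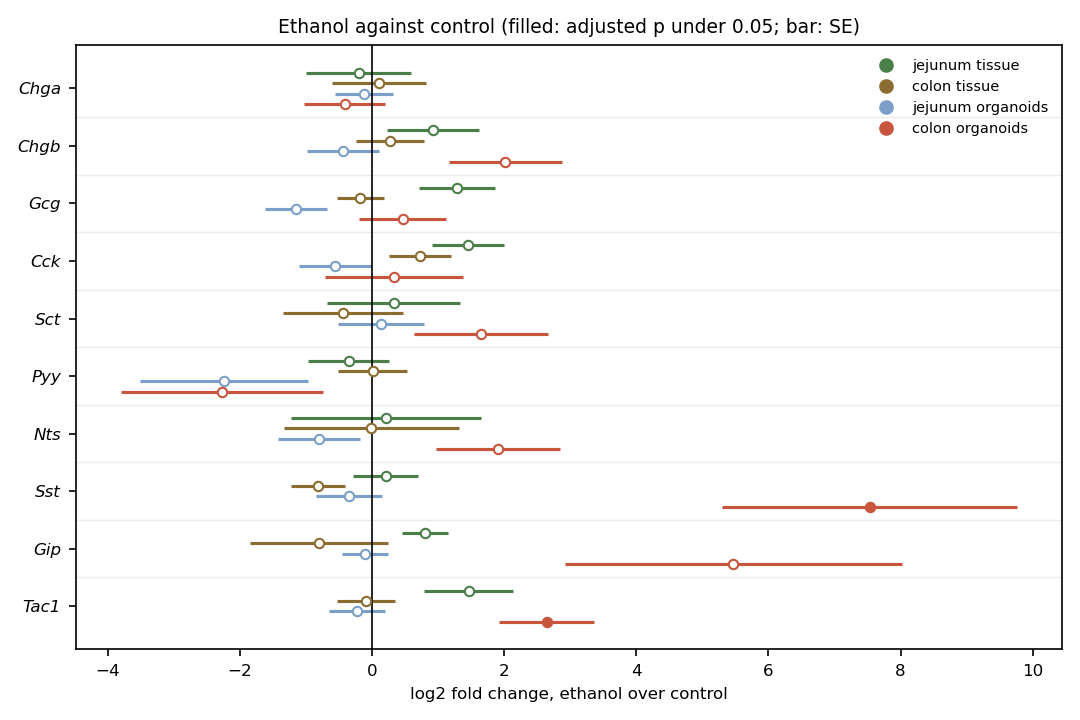
Log2 fold change of ethanol over control for the 10 genes in colon and jejunum, organoids and tissue. Points are edgeR estimates, bars standard errors, and filled points passed an adjusted p of 0.05; these are Sst and Tac1 in colon organoids. The colon organoid estimates of Sst and Gip, which had no count in control libraries, depend on the prior count.

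Across the 8 groups the genes did not share one profile. Profiles of log2(mean CPM + 1), each centred on its own mean, were compared by root mean square distance among 12238 genes with a group mean of at least 10 CPM. Nts and Sct were the closest pair of the 10, at 0.78 log2 units, with 1.70% of genes closer to Nts than Sct was. Chgb and Tac1 followed at 0.98. The genes nearest to each were Ttc26, Zfp518b and Ets1 for Chga, Slc29a1, Slc1a4 and Ak4 for Chgb, Hilpda, Stard5 and Pls3 for Gcg, Mpp4, Bri3bp and Gcat for Cck, and Ddx58, Impad1 and Zzef1 for Sct. They were Rbms1, Celf4 and Timp3 for Pyy, Dtx1, Pld4 and Rfk for Nts, Atoh1, Ern2 and Agr2 for Sst, Bcl2l15, Ms4a10 and Gm15293 for Gip, and Hoxa3, Ndrg2 and Ces2b for Tac1. The nearest gene lay at 0.15 for Sct, 0.18 for Chga, 0.39 for Gip and 0.53 for Sst. With 8 groups and 12238 genes, close profiles arise for any gene, and these are descriptions with no test.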

How the data were processed

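RNA was sequenced with Lexogen QuantSeq 3′ libraries, per the labels' protocols. The deposited raw table holds whole-number counts per gene that the authors made with Trimmomatic 0.32, BWA and HTSeq on mm10, per the submitters' processing notes, which also name edgeR and limma; counting parameters, strand included, are not given in the sources used here. The normalized table was not used here. A gene symbol is matched to its row by name.

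The 27 libraries were grouped by their labels. The counts were fitted with edgeR 4.0.16 (R 4.3.3): TMM scaling on all genes, filterByExpr by group, robust quasi-likelihood fits with 1 coefficient per group, two-sided tests and Benjamini-Hochberg adjustment over all genes kept. Fits covered the 12 organoid libraries, the 15 tissue libraries, or all 27 for organoids against tissue. Levels are counts per 1000000 counts outside Rn45s (CPM) and intervals cover 95%. Libraries of a group differed beyond counting noise in all 35 pairs (chi-square over degrees of freedom 3.32 to 209), so none was merged in the tests. Ratios and bounds from pooled counts do merge them and so cover counting error only. The code was tested on simulated counts first.

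Alternatives were the RLE scaling, DESeq2 1.42.0, limma-voom (limma 3.58.1) with a spread per group, no low-count filter, Rn45s left out, only the compared groups in the fit, the donor number as a replicate block, and each library left out. Leaving out colon tissue libraries above 100 CPM of Hoxb13, or above 10000 CPM of smooth muscle markers, and refitting the other lists without each colon organoid library, were added after seeing the data. Donor numbers come from the labels. Between ethanol and control jejunum tissue, all 3 pairs of libraries with the same number deviated together, with correlations of 0.125 to 0.151. No other comparison of 3 or more pairs had this in all pairs, but single pairs were more strongly correlated. Between ethanol and control the correlations were −0.195 to 0.610 in colon tissue and −0.189 to 0.350 in jejunum organoids. Between segments or sources of the same treatment a number may be the same animal. Blocked values are therefore given where they change a call.

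The members and gene lists were chosen with earlier results of these data known. All 10 genes are named in every comparison; of each other list the counts called and up to 4 called genes per direction by size of change, of which some are printed; and for each gene the 3 with the most similar profile. Coordinates are from GENCODE vM21 and RefSeq on GRCm38, the assembly of mm10, where none of the 10 genes overlaps another gene.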

Additional observations from a re-analysis of the deposited data

Results flagged for a closer look

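In groups of 4 libraries, 9 of 50 sets of values for the 10 genes had 1 library that stood apart from the other 3 by more than Dixon's 95% critical value, where chance flags about 1 in 20. Gcg was 185 CPM in control colon tissue replicate 1, the others being at most 64.3 CPM, and 268 CPM in control jejunum organoid replicate 2, the others at most 134 CPM. Nts was 37.2 CPM in the same organoid replicate 2, the others at most 16.5 CPM, and 29.1 CPM in ethanol jejunum organoid replicate 1, the others at most 6.98 CPM. Tac1 was 248 CPM in ethanol colon tissue replicate 1, a library with 19035 CPM of smooth muscle markers and 739.6 CPM of neuron markers, the others being at most 86.9 CPM. Sst was low, 18.1 CPM, in ethanol jejunum tissue replicate 1, the others being at least 36.4 CPM. Chga was 45.1 CPM in ethanol jejunum organoid replicate 4, the others 38.8 to 39.9 CPM, a gap that is small in size. Gip was 0.315 CPM (2 counts) in control colon tissue replicate 1 and 0.198 CPM (1 count) in ethanol colon tissue replicate 2, the other colon libraries being at 0, which is within counting error.

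The ethanol effect on Tac1 differed between colon and jejunum organoids by a direct test, at 2.87 on the log2 scale (edgeR adjusted p = 0.0497), with the ethanol libraries higher in colon organoids (23.9 and 52.0 against 10.8 and 0 CPM) and overlapping the control ones in jejunum organoids. This difference rests on 2 colon libraries per group. Its call was lost with limma-voom, with the donor block and when any jejunum organoid library was left out.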

How the results depend on the processing

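Of the 49 calls among the 10 genes, 326 of 382 fits with another setting kept the call and 56 lost it, none with a change of sign; with a library left out, 271 of 332 kept it, 58 lost it and 3 changed sign. The cause of these changes was not tested. The counts below of the 10 genes called under each alternative are given without the share of all genes called there. They therefore do not set the 10 genes apart from other genes. The limits are the 2 colon organoid libraries per group and the few genes detected in the control ones. Others are the low depth outside Rn45s of control jejunum tissue and values near 0, where log2 fold changes depend on the prior count.

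With limma-voom and a spread per group, the number of the 10 genes called was 0 (from 2) for ethanol in colon organoids, 0 (from 1) for the difference of ethanol effects in organoids, 0 (from 7) for colon against jejunum in control organoids, and 0 (from 4) and 1 (from 4) for organoids against tissue in control and ethanol colon. With only the compared groups in the fit it was 0 for ethanol in colon organoids, where Sst and Gip were not tested, 4 for colon against jejunum in control organoids, 2 and 2 for organoids against tissue in control and ethanol colon, where Gip was not tested, and 8 (from 6) in control and 8 (from 5) in ethanol jejunum. DESeq2 gave 2 for the difference in organoids, and the fit without a low-count filter 2 for organoids against tissue in control colon.

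With the replicate block of donor numbers the count was 0 for ethanol in colon organoids, 0 for the difference in organoids, and 2 for colon against jejunum in both control and ethanol organoids. In jejunum tissue under ethanol, where libraries of the same number deviated together weakly (correlations of 0.125 to 0.151), it stayed 0. The block also ended the calls of Cck in control and Sst in ethanol tissue between segments, of Gcg in control and Tac1 in ethanol colon for organoids against tissue, and added Pyy in control tissue; outside the colon organoid comparisons it changed no other call. Signs that turned under it were Gcg (−0.25) for colon against jejunum in control organoids, and Sct (1.03) and Nts (1.06) for organoids against tissue in ethanol colon.

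With limma-voom, signs turned for Chga (0.38) and Pyy (2.89) under ethanol in colon organoids, Chga (0.49) and Pyy (4.88) in the difference in organoids, Gcg (−0.25) for colon against jejunum in control organoids, Cck (−1.48), Pyy (−3.37) and Gip (0.84) for organoids against tissue in control colon, and Sct (1.17) and Nts (2.54) in ethanol colon. Without the colon tissue libraries rich in Hoxb13, Gcg was 0.64 under ethanol in colon tissue and Cck 0.16 in the difference in tissue. Without those rich in smooth muscle markers, Gcg was 0.34 and Gip 1.35 under ethanol in colon tissue and Gip 0.63 in the difference.

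Leaving out 1 library at a time, the count was 0 for ethanol in jejunum organoids, colon tissue, jejunum tissue and the difference in tissue. For ethanol in colon organoids and the difference in organoids the count moved with the library left out, where a colon group can rest on 1 library. Between segments it was 7 to 8 in control and 2 to 6 in ethanol organoids and 5 to 7 in control and 6 to 7 in ethanol tissue. For organoids against tissue it was 2 to 6 in control and 2 to 4 in ethanol colon, and 5 to 6 in control and 4 to 5 in ethanol jejunum. Log2 fold changes that crossed 0 with a call or by more than their standard error were, under ethanol in colon organoids, Chga (−1.25 to 1.69), Gcg (−0.35 to 2.36), Cck (−0.96 to 8.17), Pyy (−3.28 to 6.69) and Gip (0.00 to 6.14). In the difference in organoids they were Chga (−1.13 to 1.82), Cck (−0.41 to 8.72) and Pyy (−1.04 to 8.93). Between segments they were Gcg (−1.45 to 1.26), Sct (−9.46 to 0.39) and Pyy (−4.26 to 5.71) in control and Tac1 (−0.57 to 0.46) in ethanol organoids. In colon tissue under ethanol they were Gcg (−0.39 to 0.36) and Gip (−2.0 to 1.18), and in the difference in tissue Gip (−2.81 to 0.37). For organoids against tissue they were Chga (−0.83 to 2.24), Gcg (−0.60 to 2.22), Cck (−7.27 to 1.90) and Pyy (−7.34 to 2.73) in control colon and Gip (−1.21 to 5.52) in ethanol colon.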
